A study of Mus musculus with 14 samples.

Results

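The constitutive proteasome genes described here are the protein-coding genes of the Psma, Psmb, Psmc and Psmd series, without the inducible or tissue-restricted catalytic genes Psmb8, Psmb9, Psmb10 and Psmb11. Members were chosen by symbol alone, and 35 of the 54532 genes in the table met the rule. They comprised 8 alpha-type core genes, 7 beta-type core genes, 6 ATPase genes of the regulatory particle, 11 non-ATPase Psmd genes and 3 Psmd genes whose proteins are chaperones of base assembly. A filter on low counts kept 15360 genes for testing, 34 of them members.

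The samples were tumours grown from 4T1 cells, a mouse mammary carcinoma line used as a model of triple-negative breast cancer, after 1000000 cells were placed under the skin at the mammary gland. Treatment began 9 days later, when tumours measured about 100 mm3, and was given by intraperitoneal injection every 6 days for 3 cycles. The groups were PBS vehicle (4 libraries), cyclophosphamide (CTX) at 100 mg/kg (CTX100, 5 libraries) and CTX at 140 mg/kg (CTX140, 5 libraries), with tumours taken on day 3 after the last cycle. Cyclophosphamide is an alkylating drug that damages DNA and is activated in the liver. Strain, sex and age of the mice were not given in the labels. The labels number the libraries within a group but do not say that each came from its own animal, so the p-values measure the spread between these libraries. Counted reads per library ranged between 15196980 and 17095798 in PBS, between 15905683 and 19282726 in CTX100, and between 14423875 and 18837891 in CTX140.

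The proteasome degrades proteins tagged with ubiquitin. Its core particle is a barrel of stacked rings, in which outer alpha rings gate the entry and inner beta rings hold the proteolytic sites of Psmb5 (chymotrypsin-like), Psmb6 (caspase-like) and Psmb7 (trypsin-like). A regulatory particle caps the barrel, with a ring of ATPases (Psmc genes) that unfolds substrates and non-ATPase subunits (most Psmd genes) that bind ubiquitin, remove it or act as scaffold. In mammalian cells the transcription factor Nfe2l1 raises transcription of many subunit genes together when proteasome activity is limiting, through antioxidant response elements in their promoters.

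Promoter sequence was available from RefSeq for 28 of the 35 members, in 30 windows on build GRCm38.p6, the assembly that mm10 names. In the 250 bases before the transcript start, searched on both strands, the antioxidant response element core TGACNNNGC occurred in 5 of the 30 windows, those of Psmb5, Psmb6, Psmc6, Psmd9 and Psmd12. That was 16.7% of member windows, against 10.2% of all 32851 promoter windows of the same length. The CCAAT box occurred in 36.7% of member windows and 33.8% of all windows. The ETS core CCGGAAG occurred in 10 member windows of 9 genes (Psma6, Psmc1, Psmc2, Psmc6, Psmd2, Psmd4, Psmd6, Psmd11 and Psmd12), which was 33.3% of member windows against 6.91% of all windows. No matches of different motifs overlapped in any member window, and a match is a description of the letters, not of binding. The stretches below are shown because they hold one of the 3 motifs and belong to 2 catalytic genes, the called gene Psmb3 and 2 regulatory particle genes whose promoters hold the ETS core. Of the other called genes, Psmc4 and Psmc5 held none of the 3 motifs in their windows, and no window of Psmd3 was used here. Each is 100 bases, 5′ to 3′ on the strand of the gene, and ends at the base before the listed gene start, or 11 bases before it for Psmb6. Capitals mark the antioxidant response element core in Psmb5 (chr14:54618023-54618122, minus strand) and Psmb6 (chr11:70525257-70525356, plus strand). They mark CCAAT in Psmb3 (chr11:97703299-97703398, plus strand), and the ETS core, read on the opposite strand, in Psmd2 (chr16:20651552-20651651, plus strand) and Psmd11 (chr11:80428515-80428614, plus strand).
Psmb5: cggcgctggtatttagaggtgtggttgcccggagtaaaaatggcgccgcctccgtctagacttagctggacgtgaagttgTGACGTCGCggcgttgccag
Psmb6: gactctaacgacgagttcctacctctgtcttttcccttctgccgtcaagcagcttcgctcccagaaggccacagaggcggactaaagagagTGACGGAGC
Psmb3: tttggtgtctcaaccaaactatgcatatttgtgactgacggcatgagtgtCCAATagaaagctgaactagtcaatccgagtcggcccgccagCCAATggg
Psmd2: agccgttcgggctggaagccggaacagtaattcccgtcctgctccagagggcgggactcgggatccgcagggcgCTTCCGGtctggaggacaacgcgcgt
Psmd11: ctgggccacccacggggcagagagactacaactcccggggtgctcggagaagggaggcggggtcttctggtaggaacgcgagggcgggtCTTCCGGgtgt

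Subunit genes were expressed at high levels in every group. Per length, in the FPKM that the authors deposited, the median of the 34 tested members over the 14 libraries was 69.9, against 4.58 for all tested genes, and all 34 lay above that all-gene median. Psma6, an alpha ring subunit, had the highest level in each of the 14 libraries. Its FPKM was 199.7 ± 49.7 in PBS (SD, n = 4), 239.8 ± 29.0 in CTX100 and 229.1 ± 35.9 in CTX140 (n = 5 each). Psmd9, a chaperone that helps to assemble the ATPase ring, was the lowest tested member in each library, at 4.79 ± 0.664 FPKM in PBS, 5.18 ± 0.304 in CTX100 and 5.39 ± 0.922 in CTX140. The highest and lowest of these 34 mean levels differed 43.7-fold, but the lowest, Psmd9, is not part of the finished particle. Among the tested genes of the particle itself, mean FPKM ran between 12.1 (Psmd11) and 224.5 (Psma6), although the particle holds its subunits in fixed proportions.

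Levels followed the place of the subunit in the particle only in part. Mean FPKM ran between 46.6 (Psma3) and 224.5 (Psma6) in the alpha ring, between 30.8 (Psmb7) and 170.2 (Psmb4) in the beta ring, and between 30.8 (Psmc2) and 127.9 (Psmc5) in the ATPase ring. Non-ATPase subunits ran between 12.1 (Psmd11) and 79.7 (Psmd4), and the assembly chaperones between 5.14 (Psmd9) and 23.5 (Psmd10). The chaperones, which leave the finished particle, had a median of 11.1 FPKM, against 85.5 in the alpha ring and 99.3 in the beta ring. FPKM is a level per length, and the lowest members were also long. Psmd9, Psmd5, Psmd11 and Psmd1 are listed at 7248, 7230, 6383 and 7265 bases. Tested alpha and beta ring genes are listed at 899 (Psmb5) to 4595 bases (Psmb1). Psmd10 is listed at 1469 bases and still lay below both rings, at 23.5 FPKM. What part of these differences follows listed length was not tested. Psma8, an alpha-type gene known from testis, did not pass the filter: its counts were 2, 3, 1 and 1 in PBS, 8, 4, 5, 0 and 1 in CTX100 and 8, 4, 5, 0 and 9 in CTX140.

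**Figure D1:**
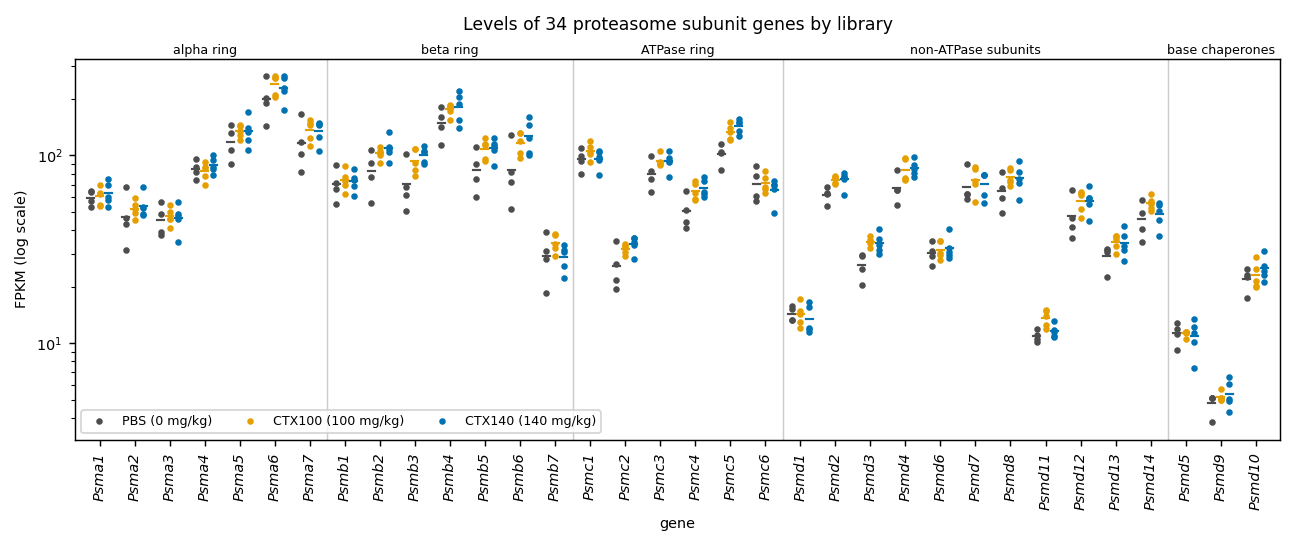
FPKM (log axis) of the 34 tested subunit genes, ordered by place in the particle, with a point for each library and a short line for each group mean (PBS grey, n = 4; CTX100 orange and CTX140 blue, n = 5 each). Psma6 was highest and Psmd9 lowest in each of the 14 libraries, and differences between genes exceeded those between groups.

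At the higher dose, 4 subunit genes were called higher than in PBS and none lower. They were the ATPases Psmc5 and Psmc4, the non-ATPase subunit Psmd3 and the beta ring subunit Psmb3, each raised by 1.32-fold to 1.43-fold. A gene was called when its p from edgeR's quasi-likelihood test, adjusted by Benjamini-Hochberg over the 15360 genes, was under 0.05. Of all tested genes, 11.1% were called higher and 10.1% lower in this comparison, so the 4 of 34 lay near the background. At an unadjusted p under 0.05, 10 of the 34 were higher, against 18.7% of all genes, and none was lower, against 17% of all genes. The median log2 fold change of the 34 was 0.19, against 0.025 for all genes, and 30 of the 34 had a positive one, as did 52.2% of all genes. The within-group SD of the libraries' median member deviation was 0.194, about the size of that median. That SD describes single libraries and not the uncertainty of a difference between group means, which was not estimated for the members as a set.

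At the lower dose no subunit gene was called in either direction, with a background of 1.2% of all genes called higher and 0.397% lower. The members nonetheless had a median log2 fold change of 0.24, against -0.013 for all genes, and 32 of 34 were positive, against 48.3% of all genes. At an unadjusted p under 0.05, 10 of the 34 were higher, against 9.37% of all genes, and none lower, against 8.52%. Psmc5, Psmd2 and Psmd3 had every CTX100 library above every PBS library, as did 5.17% of all genes, and no member had every one below, as 3.55% of all genes did. DESeq2 called 2 members higher, Psmc5 and Psmd3, and 525 of all genes. Both dose comparisons use the same 4 PBS libraries, so the resemblance of their values is not independent. Between the doses, CTX140 against CTX100, no member was called, with 0.775% of all genes called higher and 0.475% lower. There the members' median log2 fold change was -0.0087 and 15 of 34 were positive, against 53.4% of all genes. At an unadjusted p under 0.05 no member was higher and 1 was lower, against 13.1% and 9.27% of all genes. No member had all CTX140 libraries above, or all below, those of CTX100, as 2.33% and 3.71% of all genes did. The mean of both doses against PBS called Psmc5, Psmd3 and Psmc4 higher and no member lower, with 6.6% of all genes called in each direction. In that comparison 31 of 34 were positive, against 50.8% of all genes.

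**Figure D2:**
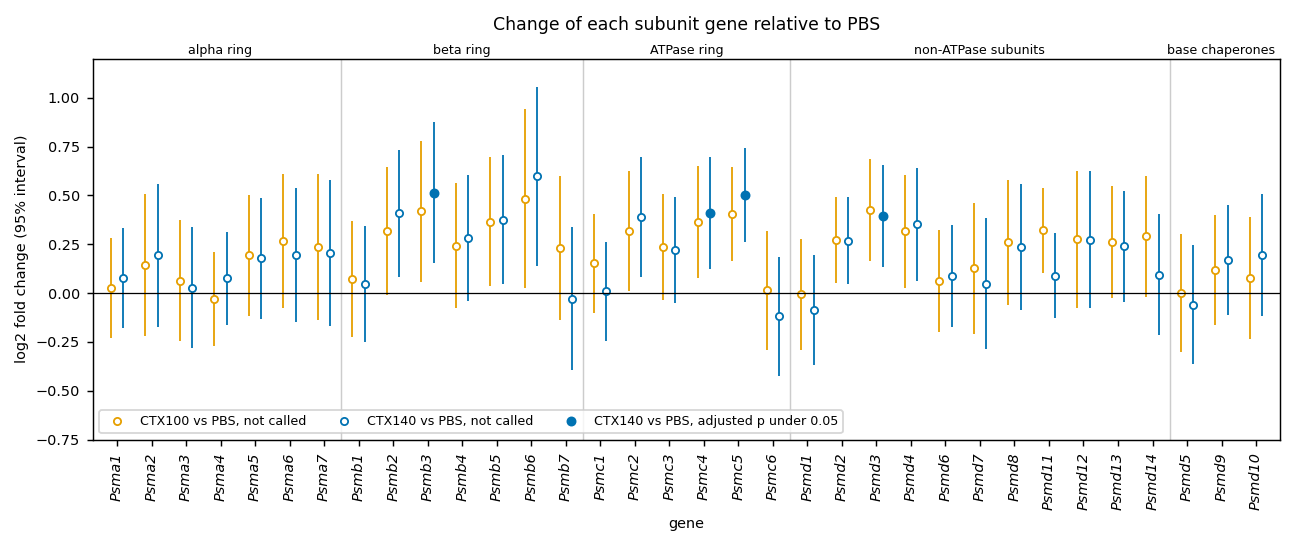
Fitted log2 fold change against PBS with its 95% interval for each of the 34 tested subunit genes, for CTX100 (orange) and CTX140 (blue); filled points passed an adjusted p of 0.05 in edgeR. The 4 filled points are Psmb3, Psmc4, Psmc5 and Psmd3 at CTX140, with log2 fold changes between 0.40 and 0.51, and most open points lie above 0 with intervals that reach it.

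Psmc5, an ATPase of the unfolding ring, showed the smallest adjusted p. Listed as ENSMUSG00000020708, it lies at chr11:106256154-106263120 (mm10, plus strand). Its normalised counts, in counts per 1000000 of the scaled library size (CPM), were 146, 161, 143 and 117 in PBS, 169.7, 173, 187, 211 and 196 in CTX100, and 179, 186, 207, 220.0 and 211 in CTX140. Every library of either dose lay above all 4 PBS libraries. Such a separation was found for 7.34% of all tested genes at CTX140 and 5.17% at CTX100. The log2 fold change at CTX140 was 0.50 ± 0.11 (SE; adjusted p = 0.0064, edgeR), and at CTX100 it was 0.40 ± 0.11 (adjusted p = 0.080). The call at CTX140 held when any 1 of the 14 libraries was left out.

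Psmc4, another ATPase of that ring (ENSMUSG00000030603, chr7:28041707-28050101, minus strand), had 111, 141, 95.1 and 90.1 CPM in PBS, 126, 128, 137, 154 and 159 in CTX100, and 131, 137, 134, 159 and 166 in CTX140. The library PBS 2 lay among the treated ones and the other 3 PBS libraries below them. Its log2 fold change at CTX140 was 0.41 ± 0.14 (SE; adjusted p = 0.041, edgeR), and the call was lost in 8 of the 14 fits that left out 1 library. Among the other ATPases, the log2 fold change was 0.39 for Psmc2 (adjusted p = 0.064), 0.22 for Psmc3 and 0.0098 for Psmc1. Psmc6 had the lowest value of the ring. It had 214, 308, 271 and 202 CPM in PBS, 222, 234, 268, 241 and 291 in CTX100, and 175, 229.7, 244, 244 and 254 in CTX140. The groups overlapped throughout, with a log2 fold change of -0.12 at CTX140 (95% interval -0.42 to 0.19).

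Of the 3 catalytic genes, none was called, and they did not have the same values. Psmb6 (ENSMUSG00000018286, chr11:70525367-70527858, plus strand) had the largest log2 fold change of all members at both doses. Its CPM were 153, 243, 135 and 97.6 in PBS, 182, 194, 225, 250.01 and 247 in CTX100, and 235, 301, 270.5, 194 and 188 in CTX140. Only PBS 2 reached into the treated range. The log2 fold change was 0.60 ± 0.22 at CTX140 (SE; adjusted p = 0.059, edgeR) and 0.48 ± 0.22 at CTX100 (adjusted p = 0.25).

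Psmb5 (ENSMUSG00000022193, chr14:54614119-54618022, minus strand), whose site is the main target of the proteasome inhibitor bortezomib, had 80.9, 101, 67.3 and 54.5 CPM in PBS, 84.2, 86.7, 103, 104 and 111 in CTX100, and 79.6, 111, 104, 101 and 95.9 in CTX140. PBS 3 and PBS 4 lay below all treated libraries, and PBS 1 and PBS 2 among them. Its log2 fold change was 0.38 ± 0.16 at CTX140 (SE; adjusted p = 0.095, edgeR) and 0.37 ± 0.16 at CTX100 (adjusted p = 0.23). Psmb7 (ENSMUSG00000026750, chr2:38588036-38644087, minus strand) had 106, 134, 95.8 and 64.1 CPM in PBS, 111, 129.6, 132, 100.4 and 116 in CTX100, and 76.9, 107, 87.9, 115 and 105 in CTX140. Its groups overlapped, with a log2 fold change of -0.029 at CTX140 (95% interval -0.40 to 0.34) and 0.23 at CTX100 (-0.14 to 0.60). Psmb7 shares its locus with Nek6 on the opposite strand. Without a stated strand setting, reads from their shared stretch cannot be assigned to either gene.

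Among the non-catalytic beta subunits, Psmb3 (ENSMUSG00000069744, chr11:97703399-97713500, plus strand) was called at CTX140. It had 141, 236, 156 and 118 CPM in PBS, 180.3, 194, 212, 253 and 249 in CTX100, and 210.3, 257, 239, 214 and 242 in CTX140. PBS 2 lay within the treated range and the other 3 PBS libraries below it. The log2 fold change was 0.51 ± 0.17 at CTX140 (SE; adjusted p = 0.041, edgeR) and 0.42 ± 0.17 at CTX100 (adjusted p = 0.21), and the CTX140 call was lost in 7 of the 14 fits that left out 1 library. At CTX140 the log2 fold change of Psmb2 was 0.41 (adjusted p = 0.069), that of Psmb4 0.28 and that of Psmb1 0.046. The median over the 7 beta genes was 0.38 at CTX140 and 0.32 at CTX100.

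No alpha ring gene was called in any comparison, and over the 7 tested ones the log2 fold change had a median of 0.18 at CTX140 and 0.14 at CTX100. Psma7 had the highest of them at CTX140. Its CPM were 362, 512, 310.4 and 253 in PBS, 346, 382, 446, 463 and 477 in CTX100, and 327, 456, 451, 387 and 448 in CTX140. PBS 2 was the highest and PBS 4 the lowest of all 14 libraries, which spanned both treated groups, and the log2 fold change was 0.21 (95% interval -0.17 to 0.58). Psma3 had the lowest, 0.029 (95% interval -0.28 to 0.34), from 147, 220.2, 190.4 and 154 CPM in PBS, 161, 179.8, 181, 196 and 213 in CTX100, and 136, 184, 178, 189.8 and 219 in CTX140. Psma2, Psma3, Psmc3 and Psmd13 each overlap another gene with a level above 1 CPM. For Psma3 and Psmc3 it lies on the opposite strand, so their counts carry the same limit as those of Psmb7. Psma2 overlaps AW209491 on its own strand, and Psmd13 overlaps Gm15542 on its own and Sirt3 on the opposite strand. Reads shared on the same strand could not be assigned even with a known strand setting.

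Of the 11 non-ATPase subunits, Psmd3 (ENSMUSG00000017221, chr11:98682554-98695979, plus strand), a subunit of the lid of the regulatory particle, was called at CTX140. Its CPM were 145, 147, 123 and 102 in PBS, 159.8, 176, 171, 187 and 175 in CTX100, and 149.9, 178, 165, 202 and 156 in CTX140. As for Psmc5, every treated library lay above every PBS library, at CTX140 by a small margin. The log2 fold change was 0.40 ± 0.12 at CTX140 (SE; adjusted p = 0.032, edgeR) and 0.43 ± 0.12 at CTX100 (adjusted p = 0.085), and the CTX140 call was lost in 4 of the 14 fits that left out 1 library. At CTX140 the log2 fold change was 0.35 for the ubiquitin receptor gene Psmd4 (adjusted p = 0.074) and 0.27 for the scaffold gene Psmd2 (adjusted p = 0.076). Psmd14, which encodes the deubiquitinase of the lid, had 0.094. Psmd1, a large scaffold subunit, had the lowest value at -0.087 (95% interval -0.37 to 0.20). Its CPM were 110.2, 96.4, 114 and 97.8 in PBS, 108, 126, 104, 87.8 and 94.5 in CTX100, and 84.8, 87.3, 86.7, 121 and 113 in CTX140. Psmd11 was the single member with an unadjusted p under 0.05 between the doses, with a log2 fold change of -0.23 for CTX140 against CTX100 (adjusted p = 0.17), and was picked out after its value was seen.

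None of the 3 base assembly chaperones was called. Their median log2 fold change was 0.17 at CTX140 and 0.079 at CTX100. Psmd10, also known as gankyrin, had 36.6, 34.1, 32.8 and 25.7 CPM in PBS, 29.8, 36.9, 42.7, 29.5 and 31.7 in CTX100, and 36.1, 45.5, 37.8, 34.2 and 31.3 in CTX140. Psmd5 had 86.6, 81.3, 92.9 and 66.8 CPM in PBS, 83.9, 83.2, 82.5, 76.7 and 83.3 in CTX100, and 53.7, 73.0, 81.3, 88.3 and 96.8 in CTX140. In both genes the groups overlapped. The log2 fold changes at CTX140 were 0.19 (95% interval -0.12 to 0.51) for Psmd10 and -0.058 (-0.36 to 0.24) for Psmd5.

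**Figure D3:**
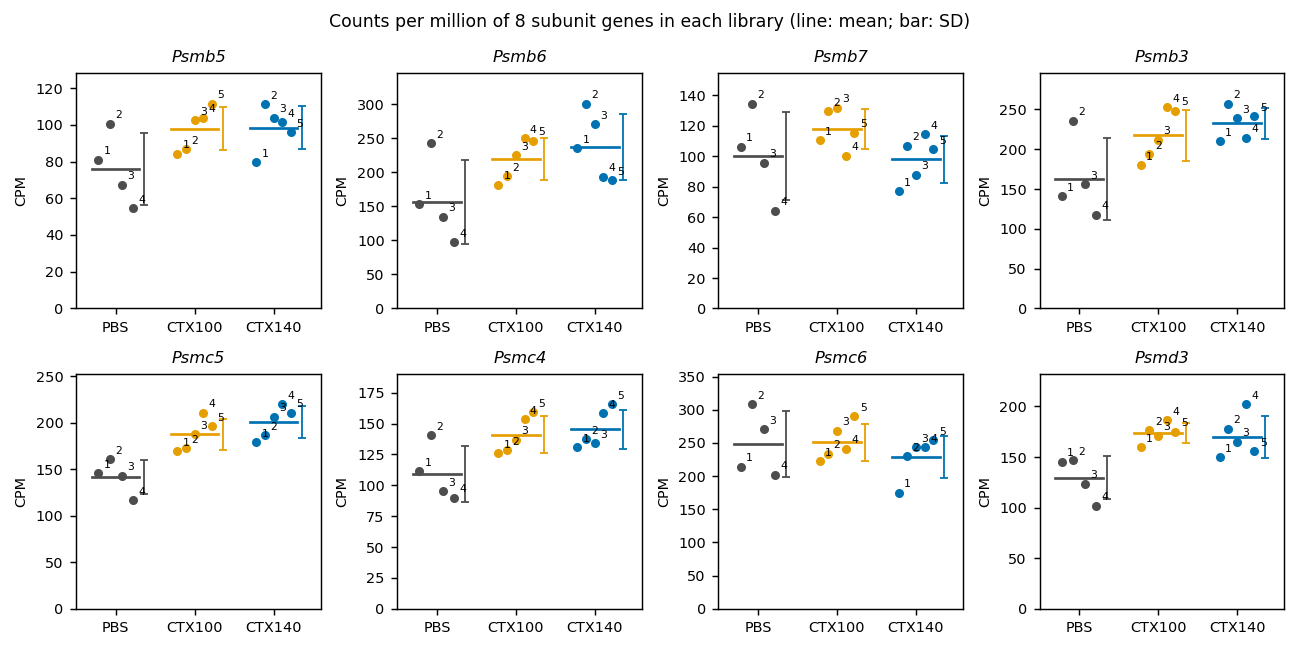
CPM in each library, numbered by replicate, for the catalytic genes Psmb5, Psmb6 and Psmb7, the 4 called genes Psmb3, Psmc5, Psmc4 and Psmd3, and Psmc6, the lowest of the ATPase genes at CTX140; lines are group means and bars SDs (PBS n = 4, CTX100 and CTX140 n = 5 each). All treated libraries lie above all PBS libraries for Psmc5 and Psmd3, while PBS 2 lies within or above the treated range in the other 6 genes.

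The subunit genes varied together from library to library, and this variation was as large within PBS as between groups. For each gene the log2 CPM of a library was taken as a deviation from the mean of that gene over the 14 libraries. PBS 4 was the lowest of the 14 libraries for 26 of the 34 members, and all 34 lay below their own mean in it, with a median deviation of -0.52. Of all tested genes, 50% lay above their own mean in PBS 4. In PBS 3 the median deviation of the members was -0.23 and 7 of 34 lay above their mean, and in PBS 1 it was -0.11 with 7 of 34. PBS 2 went the other way, with 0.16 and 26 of 34. The beta ring deviated most in PBS 4, with a median of -0.72, against -0.51 in the alpha ring and in the ATPase ring and -0.41 in the chaperones. The lowest single value was that of Psmb6, -1.04.

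Treated libraries differed less. The median deviation of the members was between -0.083 (CTX100 1) and 0.20 (CTX100 5) at the lower dose, and between -0.18 (CTX140 1) and 0.22 (CTX140 2) at the higher. In CTX140 1, 5 of 34 members lay above their mean, and in CTX140 2, 30 of 34. The summed CPM of the 34 members was 5461, 6671, 5237 and 4281 in PBS, 5637, 6142, 6442, 6393 and 6840 in CTX100, and 5262, 6905, 6318, 6455 and 6302 in CTX140. The sums of the groups overlapped. Psmb6 varied most over the libraries (SD 0.44 on the log2 scale) and Psma4 least (0.14).

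**Figure D4:**
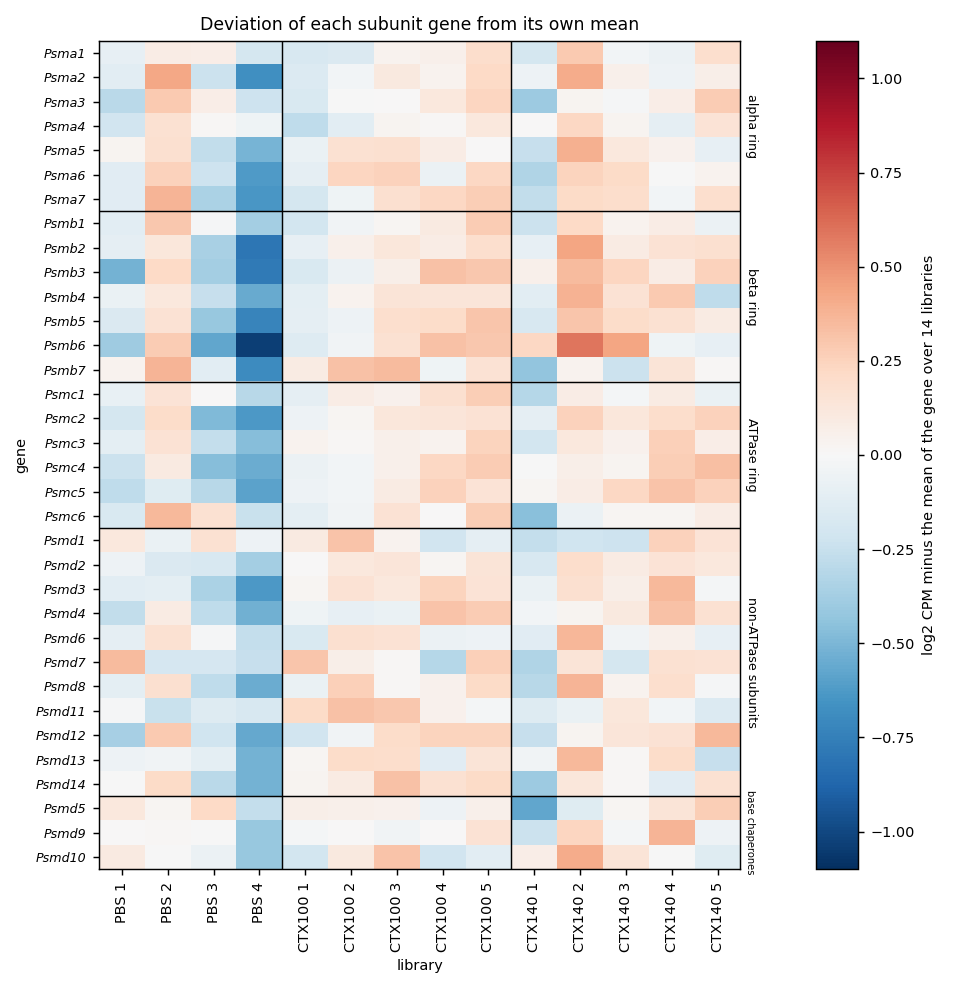
Log2 CPM of each tested subunit gene (rows, by place in the particle) in each library (columns, by group) as a deviation from the mean of that gene over the 14 libraries, blue below and red above it. The column of PBS 4 is blue in all 34 rows, most deeply in the beta ring, and the column of CTX140 2 is red in 30.

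None of the 4 calls at CTX140 held without both PBS 3 and PBS 4. Without PBS 4 the median member log2 fold change at CTX140 was 0.061, and without PBS 2 it was 0.28; at CTX100 the same omissions gave 0.13 and 0.35. The number of members called at CTX140 was 1 without PBS 3, PBS 4 or CTX140 2, 2 without PBS 1, CTX100 3 or CTX140 3, 7 without CTX140 1 and 11 without PBS 2. At CTX100 it was 6 without PBS 2. For the mean of both doses it was 0 without PBS 4, 1 without PBS 3, 5 without CTX140 1 and 12 without PBS 2. The number of all genes called higher moved too: at CTX140 it was 1970 without PBS 2 and 1039 without PBS 4, against 1711 with all libraries, and at CTX100 it was 389 without PBS 2 and 13 without PBS 3, against 184. For the mean of both doses this number was 1367 without PBS 2 and 444 without PBS 4, against 1014. No count over all genes is given here for the other single omissions. With PBS 3 and PBS 4 both left out, an alternative added after seeing the data, no member was called in any comparison. That fit keeps 2 PBS libraries, and far fewer of all genes were called against PBS in it at either dose. Those counts over all genes are given with the processing alternatives. The members' median log2 fold changes were then 0.043 at CTX140 and 0.046 at CTX100. Psmc5 had a log2 fold change of 0.38 (adjusted p = 0.13, edgeR) at CTX140.

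The libraries also differed by gene length in a way that ran across all genes. Tested genes with a mean log2 CPM of at least 5 were split into 10 classes of equal size by listed length. In PBS 4 the class of shortest genes had a median deviation of -0.42 and the longest of 0.30; in PBS 3 the values were -0.17 and 0.28. In PBS 2, in which the members were high, the shortest class stood at 0.22. Median log2 fold changes at CTX140 ran between 0.23 in the shortest class and -0.31 in the longest. The members are short by comparison, with a median listed length of 2814 bases against 3925.5 for all tested genes, and none fell in the 7th, the 9th or the longest class. Across the 34 members, log2 fold change at CTX140 had a Pearson r of -0.43 with log2 length and of 0.54 with GC content, against -0.36 and 0.16 across 5940 genes; genes share their libraries and are not independent replicates.

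With offsets for length and GC content fitted in each library, an alternative added after seeing the data, the median member log2 fold change was 0.074 at CTX140, against -0.036 for all genes, and 24 of 34 were positive. Psmc5 then had a log2 fold change of 0.19 (adjusted p = 0.17, edgeR), Psmb3 of 0.32 (0.14), Psmc4 of 0.19 (0.31) and Psmd3 of 0.36 (0.066). Psmc2, at 0.46 (adjusted p = 0.041), was the 1 member called, with 9.71% of all genes called higher. At CTX100 the median was 0.17 with 31 of 34 positive, and no member was called. For the mean of both doses, Psmd3 at 0.39 (adjusted p = 0.043) and Psmd11 at 0.32 (adjusted p = 0.038) were called, with 5.92% of all genes called higher. PBS 4 still had the lowest median deviation of the members, -0.33, followed by CTX140 1 with -0.28. Which part of the members' difference follows the drug and which follows the make-up of the PBS libraries was not tested.

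**Figure D5:**
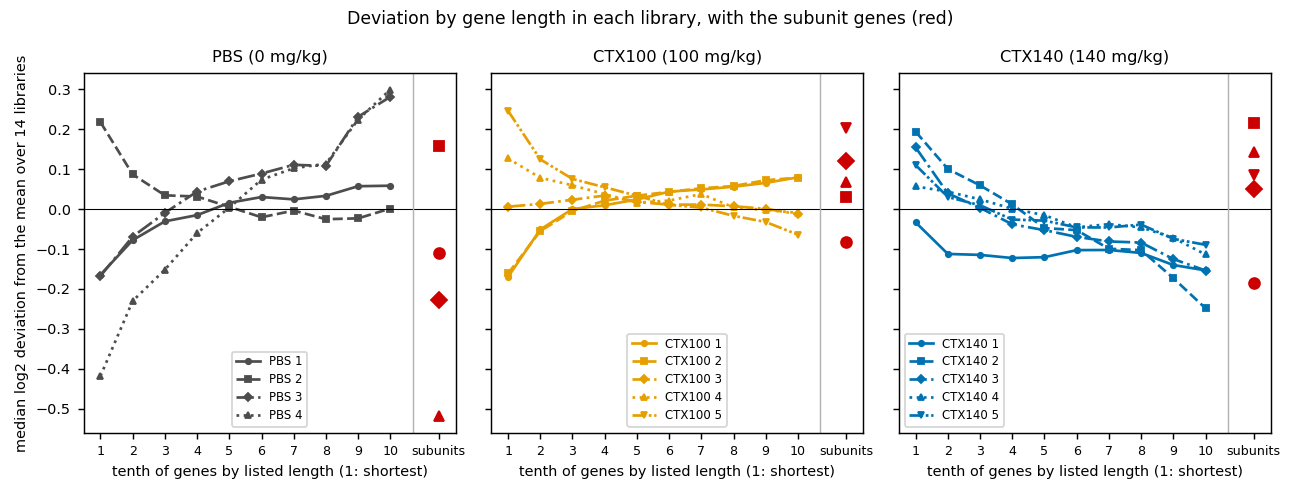
Median log2 deviation of all genes with a mean log2 CPM of at least 5, by class of listed length (1 is the shortest, 10 the longest), in each library of PBS, CTX100 and CTX140; the red symbols at the right are the medians of the 34 subunit genes in the same libraries. PBS 3 and PBS 4 rise with length and PBS 2 is high in the shortest class, and the subunit genes are lowest in PBS 4 and high in PBS 2.

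Markers of other cell types also moved with dose in these whole-tumour libraries, although the labels name the cell type as TNBC cells. In bulk tissue, fewer cells of a type and less RNA per cell cannot be told apart. Of 8 fibroblast markers, 6 were called higher and none lower at CTX140 in edgeR, and in CPM their summed level ran between 800 and 1316 in PBS, 1332 and 2313 in CTX100, and 2346 and 6610 in CTX140. Of 8 carcinoma epithelium markers, 4 were called higher at CTX140, but their sum, mostly Krt8 and Krt18, overlapped between groups, running between 1445 and 2260 CPM in PBS, 1753 and 2127 in CTX100, and 1256 and 1943 in CTX140. Of 10 mitosis genes, 4 were called higher at CTX100 and 1 lower at CTX140, with sums between 1108 and 1352 CPM in PBS, 1604 and 1852 in CTX100, and 1010 and 1603 in CTX140. At CTX140, 5 of 5 tested adipocyte markers and 3 of 6 T cell markers were called higher, as were 1 of 7 macrophage and 1 of 5 neutrophil markers, and no marker of endothelium or red blood cells. The T cell sums were 470, 151, 74.5, 56.7 and 47.5 CPM in CTX140 and ran between 31.4 and 74.9 in PBS. Only CTX140 1 and CTX140 2 thus lay above the PBS range. Of all tested genes, 11.1% were called higher and 10.1% lower at CTX140, and 1.2% higher at CTX100. No marker was at 0 in all libraries of a group. Their part in the values of the subunit genes was not tested. Of the receptors that define the triple-negative class, Pgr was near 0 in PBS (2 reads in 4 libraries), while Esr1 averaged 10.4 CPM and Erbb2 34.6 CPM there.

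The inducible catalytic genes had positive log2 fold changes at both doses and were called at the higher one. Psmb8, Psmb9 and Psmb10, which replace Psmb5, Psmb6 and Psmb7 in the immunoproteasome of immune cells and interferon-exposed cells, were all called higher at CTX140 and none at CTX100. At CTX100 their log2 fold changes were 0.40, 0.44 and 0.48. For CTX140 against CTX100 they were 0.11, 0.15 and 0.25, and none was called. Psmb10 had 249, 318, 196 and 208 CPM in PBS, 280.2, 294, 295, 428 and 391 in CTX100, and 434, 499.8, 392, 403 and 283 in CTX140, with a log2 fold change of 0.73 ± 0.19 at CTX140 (SE; adjusted p = 0.012, edgeR). The log2 fold change was 0.59 for Psmb9 (adjusted p = 0.012) and 0.51 for Psmb8 (adjusted p = 0.043). The call of Psmb8 was lost in 7 of the 14 fits that left out 1 library, and those of Psmb9 and Psmb10 in none. With PBS 3 and PBS 4 left out, none of the 3 was called at CTX140, with log2 fold changes of 0.32 for Psmb8, 0.49 for Psmb9 and 0.49 for Psmb10 (adjusted p = 0.42, 0.17 and 0.23).

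The inducible and constitutive catalytic genes were compared as the log2 ratio of FPKM within a library, a comparison added after seeing the data. These are ratios of mRNA in whole tumours and do not measure the exchange of subunits in the particle. The ratio of Psmb10 to Psmb7 was 4.69, 4.75, 4.09 and 6.52 in PBS, 5.08, 4.55, 4.48, 8.55 and 6.78 in CTX100, and 11.3, 9.38, 8.96, 7.05 and 5.43 in CTX140. On the log2 scale it averaged 3.03 ± 0.41 in CTX140 (SD, n = 5) and 2.30 ± 0.28 in PBS (n = 4), a difference of 0.73 (two-sided exact permutation test, p = 0.032, and 0.19 after Benjamini-Hochberg adjustment over the 6 ratio tests; the smallest p this design can give is 0.0159). The lowest CTX140 library lay below the highest PBS library, and without PBS 3 and PBS 4 the difference was 0.79. For Psmb8 to Psmb5 the difference at CTX140 was 0.10 and for Psmb9 to Psmb6 it was -0.07 (exact permutation p = 0.60 and 0.73). At CTX100 the 3 differences were -0.0020, -0.12 and 0.21 (exact permutation p = 0.97, 0.62 and 0.43). Since Psmb7 overlaps Nek6, its part of the first ratio may hold reads of both genes.

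Other genes of the pathway were taken from lists of activators, assembly factors, ubiquitin genes, shuttles and transcriptional regulators. With the 3 inducible genes they comprised 37 tested genes, of which 6 were called higher and 1 lower at CTX140 and none at CTX100. Of all tested genes, 11.1% were called higher and 10.1% lower at CTX140, and 1.2% and 0.397% at CTX100. The activator gene Psme3, whose protein caps the core mainly in the nucleus, was called higher at CTX140. It had 90.3, 86.9, 92.3, 112 and 94.96 CPM in CTX140 and 80.9, 73.9, 69.2 and 66.7 in PBS, without overlap, a log2 fold change of 0.39 ± 0.10 (SE; adjusted p = 0.013, edgeR). Of all tested genes, 7.34% had every CTX140 library above every PBS library. At CTX100 the log2 fold change of Psme3 was 0.37, not called, and for CTX140 against CTX100 it was 0.022. The interferon-inducible activator genes Psme1 and Psme2 had log2 fold changes of 0.16 and 0.42 at CTX140 (adjusted p = 0.52 and 0.097, edgeR).

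Of the chaperones that build the core particle, Psmg3 and Psmg4 were called higher at CTX140 and Psmg1, Psmg2 and Pomp were not called. Psmg3 had 15.5, 19.4, 16.3, 18.4 and 14.0 CPM in CTX140 and 11.3, 12.0, 9.57 and 8.95 in PBS, a log2 fold change of 0.68 ± 0.18 (SE; adjusted p = 0.017, edgeR). Psmg4 had a log2 fold change of 0.61 at CTX140 (adjusted p = 0.043, edgeR). At CTX100 Psmg3 had a log2 fold change of 0.43, not called, and for CTX140 against CTX100 0.25, not called. The transcription factor genes Nfe2l1 and Nfe2l2 and the Nfe2l1-processing genes Ddi2 and Ngly1 were not called. Nfe2l1 had 187, 177, 185, 221 and 193 CPM in CTX140 and 218, 177, 267 and 233 in PBS (log2 fold change -0.22, 95% interval -0.49 to 0.05). Uba6, a ubiquitin-activating enzyme, was the gene called lower. It had 28.1, 34.6, 31.9, 31.2 and 36.9 CPM in CTX140 and 44.8, 39.7, 59.5 and 52.6 in PBS, without overlap, and its log2 fold change was -0.59 ± 0.12 (SE; adjusted p = 0.0038, edgeR). Of all tested genes, 6.91% had every CTX140 library below every PBS library. With PBS 3 and PBS 4 left out, which leaves 2 PBS libraries, the log2 fold changes were 0.28 for Psme3, 0.50 for Psmg3 and -0.39 for Uba6 (adjusted p = 0.22, 0.24 and 0.13). Over the 14 fits that left out 1 library they stayed between 0.32 and 0.43 for Psme3, 0.59 and 0.74 for Psmg3, and -0.69 and -0.49 for Uba6. The CTX140 call was lost in 1 of these fits for Psme3, in 2 for Psmg3 and in 0 for Uba6.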

How the data were processed

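Bulk RNA-seq tables of 14 tumour libraries were used. The deposited count table holds the authors' whole-number read counts per gene, not normalised, with totals of 14423875 to 19282726 per library. The authors' FPKM were used as deposited; in each library they stand in a constant proportion to counts per base of listed length. Per the submitters' processing notes, the build was mm10 and DESeq2 was used. The sources used here do not give aligner, counter or strand option. Groups came from the sample labels.

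Counts were tested with edgeR 4.0.16 in R 4.3.3 (TMM factors, filterByExpr by group, robust quasi-likelihood test, two-sided, 1 fit over 14 libraries with a mean per group) and adjusted by Benjamini-Hochberg over 15360 genes. CPM use the TMM-scaled library size, and log2 CPM a prior count of 2. Transcript GC content came from GENCODE M21 and smooths from mgcv 1.9.3. Alternatives were plain library totals, no filter or a stricter one, DESeq2 1.42.0, limma 3.58.1 on log2 FPKM with pseudocounts of 1 and 0.1, only the compared groups, a replicate block, length and GC offsets, and libraries left out. The script was tested on simulated data. Intervals cover 95%. Ratios of FPKM were compared by exact permutation tests.

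The symbol rule that set the members, the pathway and marker lists and the tests were chosen with earlier results of these data known. Genes were named by a rule: the catalytic genes, the highest and lowest fold change at CTX140 in each role, every called member, the highest and lowest FPKM, any member that did not pass the filter, and of the pathway lists 6 set genes and, per list, the called gene with the smallest adjusted p; other members with single values were picked after these were seen. Of 38 pathway symbols, 37 were in the table and 1 was not analysed here. Pseudogenes named by a member symbol with the ending -ps held 0 to 5 reads over the 14 libraries. Pseudogenes under other names were not searched. No 2 libraries were alike beyond a Pearson r of 0.986 in log2 CPM.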

Additional observations from a re-analysis of the deposited data

Results flagged for a closer look

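In 105 groups of 4 or 5 libraries (each member in each group), 7 values stood apart from the rest of their group by a wide gap (Dixon's test at 95%); chance flags about 1 in 20 groups. In CTX100, Psmc3 had 276 CPM in CTX100 5 against 242 in the nearest library, Psmd5 had 76.7 CPM in CTX100 4 against 82.5, and Psmd9 had 41.5 CPM in CTX100 5 against 37.3. In CTX140, Psma2 had 248 CPM in CTX140 2 against 196. In PBS, Psmd7 had 204 CPM in PBS 1 against 141, Psmd13 had 76.9 CPM in PBS 4 against 103, and Psmd9 had 27.7 CPM in PBS 4 against 37.0. None of these genes was called in any comparison.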

How the results depend on the processing

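No result changed direction past the threshold under the alternatives run, and the median member log2 fold change against PBS stayed positive under each. The count of members called was less steady. At CTX140 (4 members) it was 2 with no filter, 9 with DESeq2, 1 with only the compared groups in the fit, 1 with length and GC offsets, 0 with PBS 3 and PBS 4 left out, and 1 to 11 over the 14 fits that left out 1 library. At CTX100 (0 members) it was 2 with DESeq2 and 0 to 6 over those fits. For the mean of both doses (3 members) it was 5 with plain library totals, 5 with a stricter filter, 7 with DESeq2, 2 with length and GC offsets, 0 with PBS 3 and PBS 4 left out, and 0 to 12 over those fits. With the replicate number as a block, 2 members were called at CTX140 (Psmc5 and Psmb6). The labels do not say whether the numbers pair the samples. Correlations of deviations between same-numbered libraries were -0.193 to 0.431. Without values for libraries of different number beside them, they cannot settle this. Of the single-gene values, 2330 kept their side of the threshold, 105 lost and 37 gained a call, and none turned. The counts over all genes also moved: at CTX100, 525 higher and 314 lower with DESeq2, against 184 and 61, and 0 in either direction with PBS 3 and PBS 4 left out; at CTX140, 313 higher and 163 lower with those 2 libraries left out, against 1711 and 1557. Over the 14 fits that left out 1 library, the number of all genes called higher ran between 1039 and 1970 at CTX140. At CTX100 it ran between 13 and 389, and for the mean of both doses between 444 and 1367, against 1014 with all libraries. With length and GC offsets it was 1491 at CTX140 and 910 for the mean of both doses. Where no count over all genes is given, the count of members cannot be set against a background. What read depth limits was not tested.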

Other observations

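Chromosome 11 holds 6 members (Psmb3, Psmb6, Psmc5, Psmd3, Psmd11 and Psmd12), the most of any chromosome, a grouping made after the values were seen. Their median log2 fold change was 0.45 at CTX140 and 0.41 at CTX100, and 3 of the 4 called members lie there. Over all 1239 tested genes of the chromosome the medians were 0.15 and 0.087, and 15.3% were called higher at CTX140. The 5 members on chromosome 2 (Psma7, Psmb7, Psmc3, Psmd5 and Psmd14) had medians of 0.094 and 0.23, with -0.044 and -0.033 over all tested genes there.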
